A study of Mus musculus with 12 samples.

Results

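The Hsd17b genes encode 17-beta-hydroxysteroid dehydrogenases, enzymes grouped by name rather than by a single task. This account covers Hsd17b13 and 8 further members, Hsd17b11, Hsd17b2, Hsd17b4, Hsd17b6, Hsd17b7, Hsd17b8, Hsd17b10 and Hsd17b12, in mouse liver with and without Hsd17b13. The members were taken by name, and all 9 were found among the 20143 genes of the deposited table. In the gene annotation used (GENCODE), Hsd17b8 stands under the mouse symbol H2-Ke6. The series holds 1 liver library from each of 12 mice: 6 wild-type animals (WT) and 6 Hsd17b13-KO animals (KO). Both genotypes were put on CDAA-HFD, a high-fat diet that lacks choline and is used to bring on steatohepatitis, at 8 to 10 weeks of age and ate it for 12 weeks. No group on ordinary chow is compared here. The labels give no sex, litter or strain, and they do not state how the deletion was made.

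Most of these enzymes belong to the short-chain dehydrogenase/reductase superfamily and pass hydrogen between a substrate and a nicotinamide cofactor. Hsd17b13 and Hsd17b11 sit on lipid droplets, Hsd17b13 mainly in hepatocytes, and retinol and steroids have been put forward as their substrates. Hsd17b2 and Hsd17b6 oxidise sex steroids and related sterols. Hsd17b4 is the D-bifunctional protein of peroxisomal fatty acid oxidation, Hsd17b12 the ketoacyl reductase of microsomal fatty acid elongation, and Hsd17b7 the ketoreductase of cholesterol synthesis. Hsd17b8 and Hsd17b10 work in mitochondria, the first in fatty acid synthesis, the second in isoleucine breakdown and as a subunit of the RNase P that processes mitochondrial transfer RNA.

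The catalytic centre of the superfamily rests on a tyrosine and a lysine a few residues further on, and the codons of this pair are shown because they are the feature that the members share in sequence. The coding sequences (GENCODE transcripts, mm10) were searched in frame, between codons 150 and 250, for a tyrosine codon, 2 codons of any kind, a codon for serine, alanine or threonine, and a lysine codon. Each of the 9 members held 1 such stretch there. The form of the pattern and the codon range were settled after earlier forms had missed members and the match positions had been seen, so this count describes the search and tests nothing; outside the range Hsd17b13 had 1 further match and Hsd17b11 had 2. The stretch is printed in capitals with 18 bases on each side for 8 members; that of Hsd17b4 is not shown.
Hsd17b13, from codon 185: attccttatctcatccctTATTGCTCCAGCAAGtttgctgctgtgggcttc
Hsd17b11, from codon 185: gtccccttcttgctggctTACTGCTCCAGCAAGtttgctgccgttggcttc
Hsd17b2, from codon 233: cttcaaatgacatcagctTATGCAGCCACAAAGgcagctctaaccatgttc
Hsd17b6, from codon 176: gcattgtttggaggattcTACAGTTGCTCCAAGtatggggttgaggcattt
Hsd17b7, from codon 193: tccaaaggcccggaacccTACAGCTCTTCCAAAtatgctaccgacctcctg
Hsd17b12, from codon 202: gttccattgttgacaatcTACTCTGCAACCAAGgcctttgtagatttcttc
Hsd17b8, from codon 167: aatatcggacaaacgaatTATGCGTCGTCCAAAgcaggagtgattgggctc
Hsd17b10, from codon 178: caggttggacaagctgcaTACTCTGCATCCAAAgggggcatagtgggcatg
Of the 15 capital bases, Hsd17b11 shared 14 with Hsd17b13, and the other 7 members, Hsd17b4 included, shared 7 to 9.

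Hsd17b13 and Hsd17b11 had the highest share of identical bases relative to the longer coding sequence (64.8%) and the longest shared run of the 36 pairs. Their coding sequences of 915 and 897 bases aligned over 892 bases, of which 593 (66.5%) were identical. Over aligned bases alone the 8 pairs with Hsd17b4, whose coding sequence of 2208 bases is the longest, came higher (68.5% to 77.2%). The longest run of bases they share, TGCTCCAGCAAGTTTGCTGC, is 20 bases long and begins at coding base 556 in both, directly after the tyrosine codon shown above. Between Hsd17b13 and the other 7 members the longest shared run in coding sequence was 9 to 13 bases. No GENCODE transcript of another gene matched any of the 9 at 95% identity or more in a single alignment of at least 500 bases. Sequence shared in shorter pieces would not be found this way. Hsd17b8 shares annotation with another gene: of its exon bases, 86.4% (1419 bases) also belong to Gm20427, a transcript annotated on the same strand. Gm20427 was at 4.71 ± 1.97 CPM (counts of a gene scaled to a library total of 1000000) in WT against 4.32 ± 2.18 in KO, and the sources used here do not say how reads were divided between the 2 genes, so the values of Hsd17b8 are uncertain in this respect.

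The labelled tissue was checked against its markers. All 8 hepatocyte markers were measured, summing to 83002 to 104474 CPM in WT and 85937 to 101011 in KO, with albumin (Alb) at 44936 ± 5052 and 44794 ± 4817. Muscle and adipocyte markers are not analysed here. The 5 Kupffer cell markers summed to 182 to 322 CPM in WT against 304 to 469 in KO, and the 4 cholangiocyte markers to 41.1 to 93.0 against 19.9 to 37.6; their part in the results was not tested. The pancreatic gene Cela1 ran from 5.42 to 224 CPM among WT mice and from 4.99 to 94.4 among KO mice. From the spacing of low values, the worth of 1 CPM was between 46.3 and 77.9 counts in these libraries. Over all genes, 14 of 9186 tested passed an adjusted p of 0.05 between KO and WT (limma, Benjamini-Hochberg), 10 higher and 4 lower in KO. That count was 9 without WT mouse 3, 25 without KO mouse 3 and 90 without KO mice 1 and 3 together. Those 2 KO mice had intermediate levels of the chromosome 5 gene Pebp1, 195 and 214 CPM. It was at 92.4 to 110.0 CPM in WT and 288 to 308 in the other KO mice. Pebp1 is itself among the 14 genes that passed (limma adjusted p = 1.29e-05), so a split that follows it is drawn from these same data. Values given without those 2 mice, here and below, are descriptions and test nothing. In bulk liver, fewer cells of a type and less RNA per cell cannot be told apart. Errors are SD over 6 mice unless marked otherwise. The p-values set a difference against the spread between mice and take the mice as independent. The labels do not say whether mice of a group were littermates, so that independence is not known.

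Hsd17b13 (ENSMUSG00000034528, chromosome 5, 103955440 to 103977410, minus strand, mm10) checks the genotype labels. In WT it ranged from 315 to 393 CPM with a median of 340.3, and in KO from 0.956 to 1.40 with a median of 1.19. Every KO library lay below every WT library, and the WT mean was 295 times that of KO (a log2 difference of -7.32 with an SE of 0.08, limma adjusted p = 1.31e-16; exact two-sided permutation p = 0.00216, the smallest that 6 against 6 mice allow). What remained in KO came from 53 to 94 counts per library, and the sources used here do not place the deletion within the gene. Counting error at the lowest of these was 13.7%.

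None of the other 8 enzymes passed the test for a difference between KO and WT. In WT, Hsd17b13 was the most abundant of the 9 per length of transcript and held 27.9% to 36.2% of their summed CPM per kb of exon. The sum over all 9 was 499 ± 23.7 CPM per kb in WT and 346 ± 29.8 in KO, while the sum of the 8 others was 338 ± 27.0 in WT and 346 ± 29.7 in KO. In CPM the 8 others summed to between 715 and 900 in WT and between 756 and 922 in KO, so the groups overlapped. The difference of their means was 19.2 CPM, or 2.35% (-0.154% without WT mouse 4, 4.47% without WT mouse 5), where Hsd17b13 itself accounted for 347 CPM in WT. These sums are descriptions of a chosen list and carry no test.

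Gene by gene, limma called 0 of the 8, against 0.152% of all genes tested (0.109% in the upward and 0.0435% in the downward direction). An unadjusted p under 0.05 was reached by 0 of the 8, against 9.80% of all genes. WT and KO ranges overlapped for each of the 8, whereas they were separate for 0.893% of the genes tested. Of the 8 differences 7 were positive (45.6% over all genes), with a median of 0.05 on the log2 scale beside -0.01 over all genes. Among the 8 hepatocyte markers 7 were likewise positive, with a median of 0.07. When only genes averaging 100 CPM or more were fitted, the all-gene median was 0.03, and 3 of the enzymes were left (median 0.003). Whether the enzymes moved apart from hepatocyte genes in general was not tested. Of the 8 enzymes, 4 were positive without WT mouse 4, and 6 without KO mice 1 and 3. On simulated data of this size, limma recovered 46% of genes changed by 25%, 92% of those changed by 50% and 100% of those changed 2-fold. All sizes were changed in 1 simulated data set, with 50 genes at each size and a 4-fold size besides. Far more genes were thus changed than the 14 that passed in the mouse data. More passing genes loosen the Benjamini-Hochberg cutoff, so these rates may overstate recovery for the enzymes here. The SEs of Hsd17b6 (0.169) and Hsd17b7 (0.135) also exceeded the median SE over all genes (0.077).

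**Figure D1:**
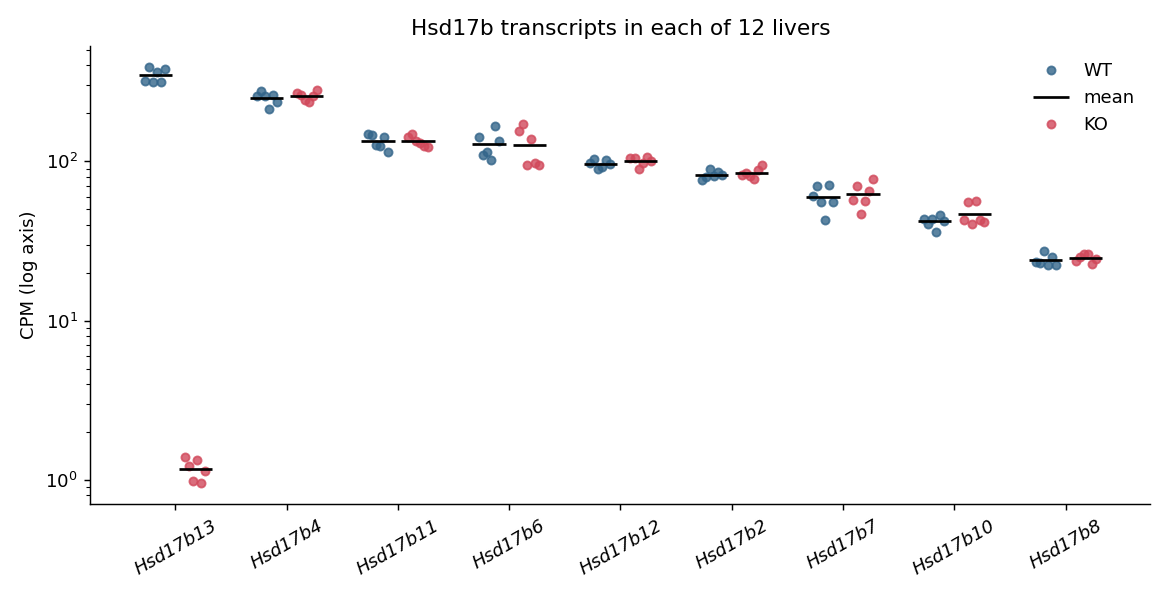
CPM of the 9 genes on a log axis, 1 point per mouse, WT in blue and KO in red, with a black line at each group mean. Hsd17b13 drops from a mean of 347 to 1.18 CPM, and the WT and KO points of each other gene overlap.

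Hsd17b11 (ENSMUSG00000029311, chromosome 5, 103989762 to 104021919, minus strand), a fellow lipid droplet protein, has its 3′ end 12.4 kb from the 5′ end of Hsd17b13. It ranged from 114 to 149 CPM in WT (median 134.6) and from 124 to 149 in KO (median 131.7). The KO mice lay inside the WT range. The difference was 0.00 on the scale of log2(CPM + 1), with a 95% interval of -0.15 to 0.16 (limma adjusted p = 0.995; exact two-sided permutation p = 0.978). That interval spans a KO level of 0.898 to 1.12 times the WT level. KO mice 1 and 3 averaged 138 CPM and the other 4 averaged 132. Of 7 tested genes within 1 Mb of Hsd17b13, Hsd17b11 included, limma called 0, beside 0.152% of all genes. An unadjusted p under 0.05, reached by 9.80% of all genes, was found for 3 of the 7: Spp1 (osteopontin) and Pkd2 (polycystin-2), with log2 differences of -1.02 and -0.23, and Sparcl1 with 0.45.

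Of 2 other tested relatives in the retinol dehydrogenase branch of Hsd17b13 and Hsd17b11, 0 passed. Beside 0.152% of all genes, this count says little about the branch. Dhrs3, which reduces retinal to retinol, was at 117 ± 10.3 CPM in WT against 109 ± 10.4 in KO (limma adjusted p = 0.744). Rdh10, the main retinol dehydrogenase of the embryo, was at 20.7 ± 1.76 and 21.5 ± 1.44 (adjusted p = 0.870). Sdr16c5 and Sdr16c6 are not analysed here. Among enzymes that carry a further number of the series, Akr1c6, an aldo-keto reductase also called 17-beta-hydroxysteroid dehydrogenase type 5, was at 599 ± 55.7 and 626 ± 71.2 CPM (adjusted p = 0.892). The Hsd-like proteins Hsdl1 (16.4 ± 0.816 and 16.4 ± 0.760) and Hsdl2 (65.0 ± 14.4 and 64.1 ± 11.04) gave adjusted p-values of 0.996 and 0.988. Hsd17b1, Hsd17b3 and Hsd17b14 are not analysed here.

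The steroid-oxidising enzymes behaved differently from each other in their spread. Hsd17b2 (ENSMUSG00000031844, chromosome 8, 117701904 to 117759027, plus strand), which turns oestradiol and testosterone into weaker forms, ranged from 76.7 to 89.9 CPM in WT (median 82.0) and from 77.3 to 94.4 in KO (median 83.4). The difference was 0.03 with an interval of -0.09 to 0.16 (adjusted p = 0.911; exact permutation p = 0.543). Hsd17b6 (ENSMUSG00000025396, chromosome 10, 127990936 to 128007611, minus strand), an oxidase and epimerase of androgens and retinoids, ranged from 101 to 166 CPM in WT (median 125) and from 95.3 to 172 in KO (median 118). Its KO mice split, with mice 1, 2 and 4 at 156, 172 and 139 and mice 3, 5 and 6 at 95.6, 97.4 and 95.3, below every WT mouse. Its coefficient of variation was 19.0% in WT and 27.3% in KO, the widest of the 8, and it gave the widest interval (difference -0.05, -0.41 to 0.32, adjusted p = 0.965; exact permutation p = 0.792). In KO relative to WT, that interval spans 0.753 to 1.24 times the WT level.

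Of the enzymes of fatty acid handling, Hsd17b4 (ENSMUSG00000024507, chromosome 18, 50128201 to 50196269, plus strand) ranged from 214 to 278 CPM in WT (median 257) and from 234 to 281 in KO (median 259.8). The difference was 0.04 with an interval of -0.10 to 0.19 (adjusted p = 0.905; exact permutation p = 0.543). Hsd17b12 (ENSMUSG00000027195, chromosome 2, 94032689 to 94157964, minus strand) ranged from 89.8 to 103 CPM in WT (median 97.1) and from 89.7 to 107 in KO (median 102). Of its KO mice 3 lay above every WT mouse and 1 below, and the difference was 0.06 with an interval of -0.06 to 0.18 (adjusted p = 0.821; exact permutation p = 0.275).

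Hsd17b7 (ENSMUSG00000026675, chromosome 1, 169949535 to 169969241, minus strand) ranged from 42.9 to 71.6 CPM in WT (median 58.3) and from 46.8 to 77.9 in KO (median 61.1). The lowest mice were WT mouse 4 and KO mouse 3, and the highest WT mouse 5 and KO mouse 6. The difference was 0.07 with an interval of -0.22 to 0.36 (adjusted p = 0.923; exact permutation p = 0.639). KO mice 1 and 3 averaged 51.8 CPM and the other 4 averaged 67.5. Without those 2 mice, a split drawn from these data, the difference was 0.19 (adjusted p = 0.661).

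The mitochondrial members included the largest difference of the 8. Hsd17b10 (ENSMUSG00000025260, chromosome X, 152001845 to 152004442, plus strand) ranged from 36.2 to 46.4 CPM in WT (median 42.7) and from 40.2 to 56.5 in KO (median 42.9). KO mice 2 and 4, at 56.0 and 56.5, lay above every WT mouse, and the other 4 KO mice lay within the WT range. The difference was 0.14 with an interval of -0.07 to 0.34 (adjusted p = 0.718; exact permutation p = 0.247). Without KO mice 1 and 3, again a split drawn from these data, the difference was 0.21 (adjusted p = 0.439). Hsd17b8 (ENSMUSG00000073422, chromosome 17, 34026033 to 34028060, minus strand) ranged from 22.4 to 27.3 CPM in WT (median 23.1) and from 22.8 to 26.4 in KO (median 24.7). Its difference was 0.05 with an interval of -0.08 to 0.18 (adjusted p = 0.866; exact permutation p = 0.377).

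**Figure D2:**
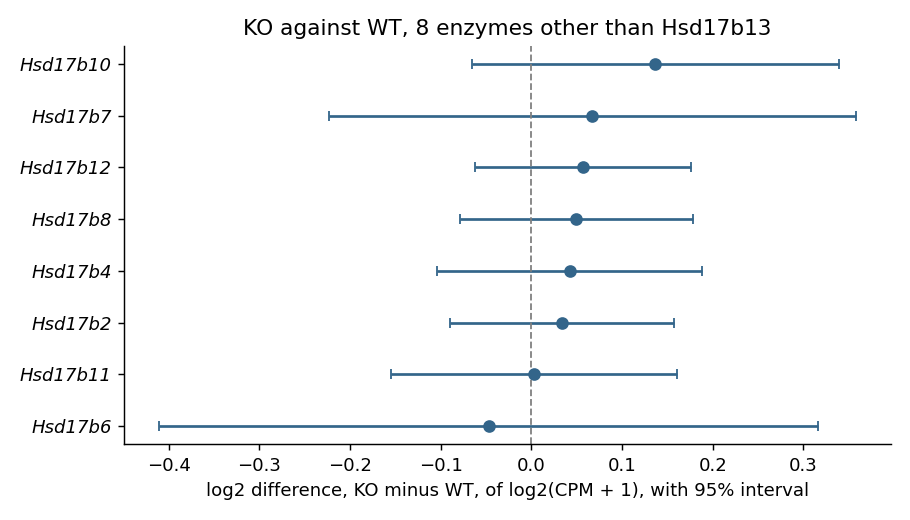
KO minus WT difference of log2(CPM + 1) for the 8 enzymes other than Hsd17b13, with 95% intervals from limma over 6 mice per group. Each interval spans 0, the widest being that of Hsd17b6 (-0.41 to 0.32) and the point farthest from 0 that of Hsd17b10 (0.14).

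Levels of different genes were compared per kb of exon (the union of all annotated exons), since longer transcripts give more reads. Hsd17b13 led in WT at 161 ± 16.7 CPM per kb and lay above 97.5% of the genes tested. Hsd17b6 (81.3 ± 15.4) and Hsd17b4 (73.6 ± 6.58) came next and were not separable, with Hsd17b6 the higher of the 2 in 4 of 6 mice. Hsd17b2 (42.9 ± 2.42), Hsd17b11 (41.0 ± 4.19) and Hsd17b12 (40.2 ± 2.20) formed a group whose ranges overlapped. Hsd17b10 followed at 32.4 ± 2.65, below all of them in every WT mouse. Hsd17b8 (14.5 ± 1.17) and Hsd17b7 (11.6 ± 2.07) stood last, with overlapping ranges but Hsd17b8 the higher in 6 of 6 WT mice. Hsd17b13 was 1.98 times Hsd17b6 on this scale, and the ranges of the 2 did not overlap. This order covers the listed members only. Akr1c6, outside the list, had a WT mean of 599 CPM over 2033 exon bases, against 347 CPM over 2157 for Hsd17b13. Akr1c6 was thus the higher per kb.

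In KO the order of the 8 was nearly the same, with Hsd17b6 (79.9 ± 21.8 CPM per kb) and Hsd17b4 (75.7 ± 4.96) at the top and each ahead in 3 of 6 mice. Hsd17b12 (41.8 ± 2.65) and Hsd17b11 (40.9 ± 3.04) exchanged places within their spread. Hsd17b13, at 0.546 ± 0.0839, stood last, below Hsd17b7 (12.2 ± 2.20). The choice of length moved neighbours only: with the longest transcript as length, Hsd17b4 passed Hsd17b6, and with the median protein-coding transcript Hsd17b11 passed Hsd17b2.

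**Figure D3:**
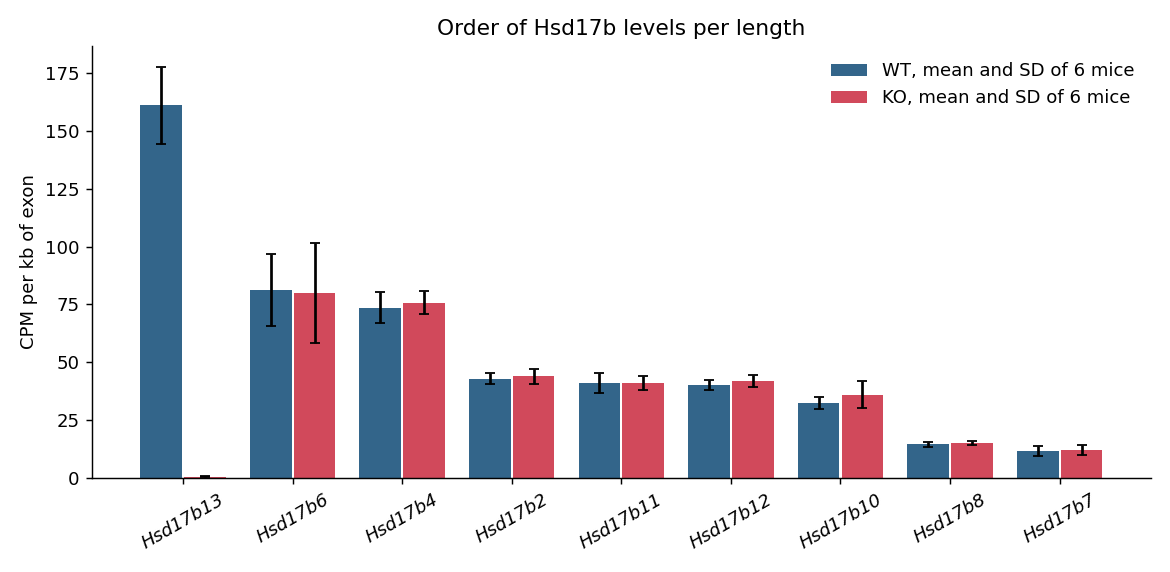
CPM per kb of exon for the 9 genes in WT (blue) and KO (red), bars at the mean and error bars the SD of 6 mice per group, ordered by the WT mean. Hsd17b13 leads at 161 in WT and is at 0.546 in KO, and the other bars stand in nearly the same order in both groups.

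Pathway genes around each enzyme were examined in the same fit. Over the lists that follow, with members of the family set aside, 0 of the tested genes passed limma's test in either direction, beside 0.152% of all genes. The counts below stand beside 45.6% positive differences, 9.80% at an unadjusted p under 0.05 and a median of -0.01 over all 9186 genes. They also stand beside 7 positive differences among the 8 hepatocyte markers (median 0.07). Of 21 tested genes of cholesterol synthesis 18 were above 0 (median 0.08) and 0 were at an unadjusted p under 0.05. The nearest to the threshold was Nsdhl, the decarboxylating dehydrogenase that acts just before Hsd17b7, at 35.5 ± 7.82 CPM in WT against 40.4 ± 5.60 in KO (adjusted p = 0.675). Next came Fdps, the farnesyl diphosphate synthase (84.9 ± 21.9 and 100.5 ± 20.2, adjusted p = 0.689). Of 23 genes of peroxisomal oxidation 16 were positive (median 0.05, 3 at an unadjusted p under 0.05), led by Pecr, a trans-2-enoyl-CoA reductase, at 46.7 ± 4.87 and 54.1 ± 5.75 (adjusted p = 0.353). Acox2, the oxidase of branched-chain substrates, was at 153 ± 12.0 and 167 ± 8.42 (adjusted p = 0.507).

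Fatty acid elongation gave 8 positive differences among 13 tested genes (median 0.02, 0 at an unadjusted p under 0.05), and the smallest p belonged to the dehydratase family gene Hacd4, at 16.1 ± 3.4 CPM in WT against 13.6 ± 1.68 in KO (log2 difference -0.21, adjusted p = 0.630), with 3 KO mice lower than the lowest WT mouse. The elongation reductase Tecr was at 52.6 ± 5.96 and 55.6 ± 3.96 (adjusted p = 0.80). Mitochondrial fatty acid synthesis and lipoylation gave 6 of 7 (median 0.05, 0 at an unadjusted p under 0.05). Its gene with the smallest p was Cbr4, the partner subunit of Hsd17b8 in mitochondrial ketoacyl reductase, at 19.9 ± 2.05 and 21.7 ± 2.36 (adjusted p = 0.738). The list of RNase P and branched-chain amino acid breakdown gave 12 of 14 (median 0.05, 0 at an unadjusted p under 0.05). Echs1, an enoyl-CoA hydratase, had the smallest p, at 133 ± 7.99 CPM in WT against 142 ± 10.2 in KO (adjusted p = 0.655). Trmt10c, which binds Hsd17b10 in RNase P, was at 14.9 ± 0.979 and 14.1 ± 0.805 (adjusted p = 0.736).

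In the steroid list 19 of 20 tested genes were above 0 (median log2 difference 0.12), and 5 had an unadjusted p under 0.05, all higher in KO. The aldo-keto reductase Akr1c19 was at 25.8 ± 1.82 CPM in WT against 35.5 ± 7.56 in KO, above every WT mouse in 5 of 6 KO mice (log2 difference 0.42, SE 0.11, adjusted p = 0.170). Its paralogue Akr1c12 was at 23.3 ± 1.87 and 26.4 ± 1.76 (adjusted p = 0.328), and the glucuronosyltransferase Ugt2b35, which lies on chromosome 5, at 260.4 ± 32.4 and 323 ± 45.4 (adjusted p = 0.294). Paralogues of these families resemble each other and the sources used here do not say how shared reads were assigned, so their values are uncertain. Lipid droplet genes gave 16 of 21 positive (median 0.06, 2 at an unadjusted p under 0.05). Fitm1, a fat storage-inducing protein, was at 9.41 ± 1.51 and 11.9 ± 1.31 CPM (adjusted p = 0.278). The perilipin Plin4 was at 51.7 ± 7.59 and 70.5 ± 23.5 (adjusted p = 0.501).

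Retinoid genes had members on both sides. Of 20 tested 13 were positive (median 0.02), with 4 higher and 2 lower at an unadjusted p under 0.05. Lrat, which esterifies retinol, was at 38.3 ± 6.34 CPM in WT against 52.2 ± 7.0 in KO, and 5 KO mice were higher than the highest WT mouse (0.44, SE 0.11, adjusted p = 0.158). Rdh16, a retinol dehydrogenase of hepatocytes, was at 66.5 ± 5.65 and 79.2 ± 9.77 (adjusted p = 0.279). Lrat is also a marker of stellate cells, whose 6 markers, Lrat included, summed to 763 to 1042 CPM in WT and 676 to 885 in KO. These markers went both ways. Besides Lrat, Reln was higher in KO (means 224 in WT and 229 in KO). Lower were Col1a1 (285 and 199), Dcn (252 and 242), Pdgfrb (54.5 and 39.8) and Des (9.56 and 8.23). The part of stellate cells in the Lrat value was not tested.

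Across mice of either genotype the enzymes varied with different partners. Deviations of log2(CPM + 1) from the group mean were correlated over the 12 mice, as descriptions with no p-value, because partners were picked as the highest of 9185 genes and values of a mouse share 1 library. Hsd17b7 had its 2 closest partners in its own pathway: Idi1, the isopentenyl diphosphate isomerase (r = 0.964, Spearman's rho = 0.923), and Msmo1, the sterol demethylase that acts a few steps before it (r = 0.952, rho = 0.930). Without the 2 mice farthest from the median of Hsd17b7 these were 0.937 and 0.900. Comparison with its pathway list, and the limit of 0.8, were added after these partners had been seen. Its r with the 21 cholesterol synthesis genes had a median of 0.760 and ran from 0.198 (Ebp) to 0.964, against a median of -0.11 with all genes. An r above 0.8 was reached by 8 of these 21 genes (38.1%) and by 0.174% of all genes. Idi1 itself ranged from 97.7 CPM in WT mouse 4 to 209.9 in WT mouse 5, and from 103 in KO mouse 3 to 186 in KO mouse 6, the same mice that were lowest and highest in Hsd17b7.

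**Figure D4:**
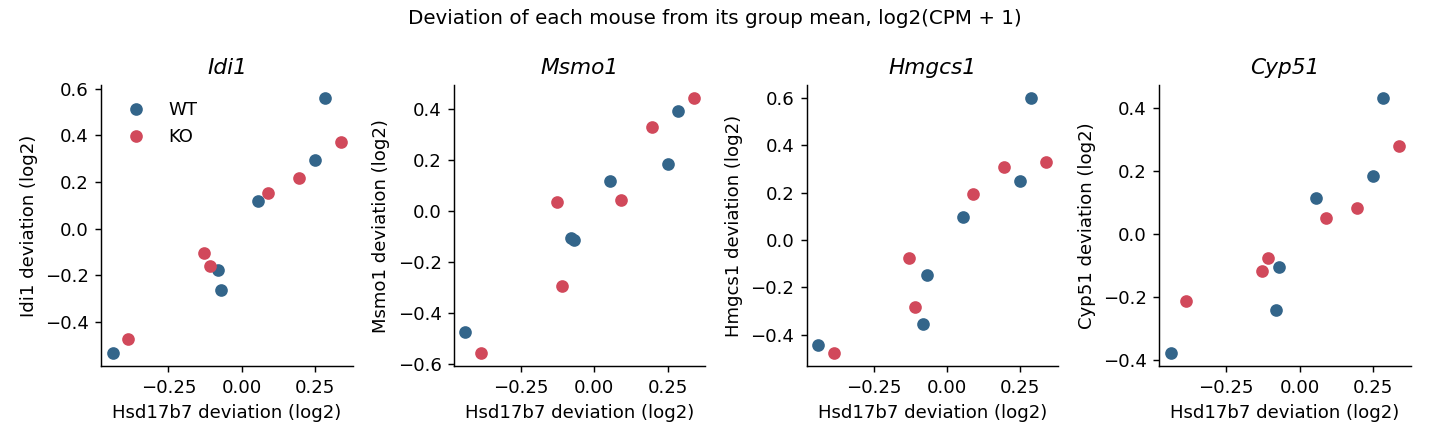
Deviation of each mouse from its group mean in log2(CPM + 1), Hsd17b7 on the horizontal axis and 4 genes of cholesterol synthesis on the vertical axes, WT in blue and KO in red. Mice of both genotypes lie along 1 rising line, with r = 0.964 for Idi1, 0.952 for Msmo1, 0.926 for Hmgcs1 and 0.917 for Cyp51.

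Hsd17b4 had Pctp, a phosphatidylcholine transfer protein (r = 0.935, rho = 0.818), as its closest partner. With the 23 peroxisomal genes its median r was 0.519, against -0.126 with all genes. In that list r was highest for Decr2, the peroxisomal dienoyl-CoA reductase (0.894), and lowest for Acox3 (-0.43). Hsd17b12 was closest to Cct8, a chaperonin subunit (r = 0.933, rho = 0.874), and Snap29, a membrane fusion protein (0.894, rho = 0.881). Among 13 elongation genes its median r was 0.266, against -0.058 with all genes, and the fatty acid elongase Elovl5 stood highest at 0.874. Among themselves, Hsd17b4 and Hsd17b7 had the highest r of the 28 pairs of the 8 enzymes (0.828, rho = 0.804) and Hsd17b6 and Hsd17b10 the next (0.745, rho = 0.755).

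Hsd17b11 was closest to Arl6ip1, a membrane-shaping protein of the endoplasmic reticulum (r = 0.958, rho = 0.923), and Ces1d, a carboxylesterase that hydrolyses triglyceride (0.898, rho = 0.818). With the 22 lipid droplet genes (Hsd17b7 among them) the median r of Hsd17b11 was 0.131, against -0.195 with all genes. Hsd17b6 was closest to Pdk1, a pyruvate dehydrogenase kinase (0.902, rho = 0.916), and Adh5, an alcohol dehydrogenase (0.896, rho = 0.923). Both Hsd17b6 and Hsd17b2 were set against the 20 steroid genes: the median r was 0.497 for Hsd17b6 and -0.28 for Hsd17b2. With all genes the median r was -0.212 for Hsd17b6 and 0.054 for Hsd17b2. Hsd17b2 was closest to Rangap1, a regulator of nuclear transport (0.910, rho = 0.874), and Inhbc, an inhibin subunit made by liver (0.901, rho = 0.881). Hsd17b10 was closest to the coactivator gene Ppargc1a (0.902, rho = 0.776) and to Hsd11b1, which activates glucocorticoids (0.896, rho = 0.909). For Ppargc1a the r was 0.738 without the 2 mice farthest from the median of Hsd17b10. Hsd17b8 was closest to Aldh7a1, an aldehyde dehydrogenase (0.930, rho = 0.860), and Apoe, an apolipoprotein (0.928, rho = 0.923). Its median r was 0.07 over 7 genes of its own pathway, against -0.125 with all genes.

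**Figure D5:**
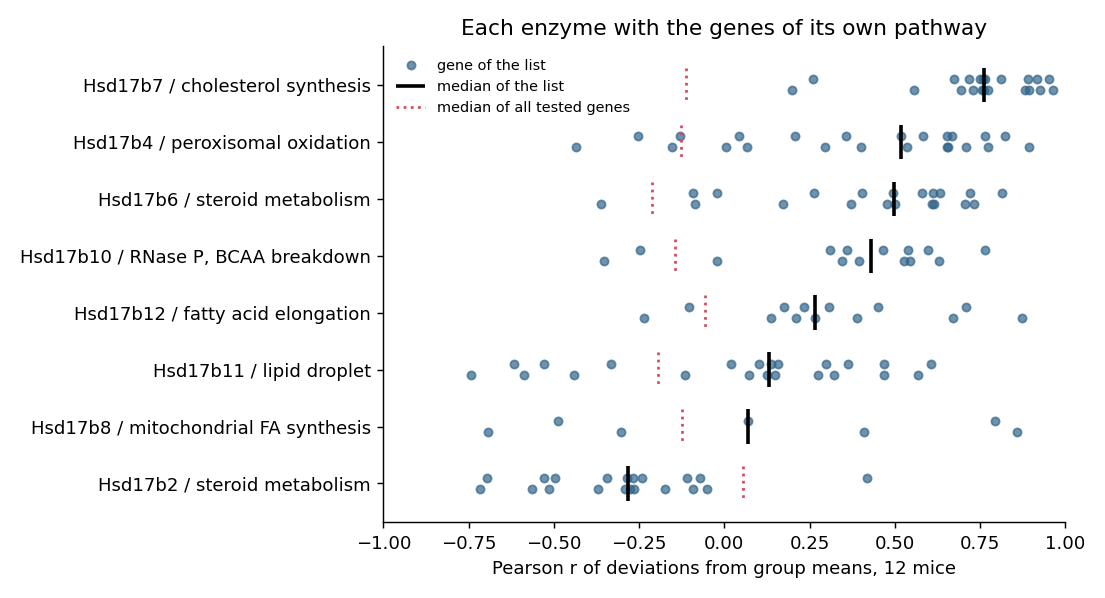
Pearson r over 12 mice between each enzyme and the tested genes of its own pathway list, 1 point per gene, with the list median as a black line and the median over all tested genes as a dotted line. Hsd17b7 with cholesterol synthesis stands highest (median 0.760) and Hsd17b2 with steroid metabolism lowest (-0.28); BCAA is branched-chain amino acid and FA fatty acid.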

How the data were processed

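The authors deposited 1 table of CPM, where normalized counts had been assumed when the tests were set down; the same log-scale test was kept. Each column sums to 1000000, with 1 column per mouse. The submitters' processing notes list the mm10 build and, with no role given, DESeq2 1.14.1, STAR 2.7.3a and Partek 10.0. Per the labels' protocols, globin and ribosomal RNA were removed and a directional kit was used, whereas the molecule label says polyA RNA. The sources used here do not give the counting tool or its strand setting. Of the low values 69.2% to 71.6% per library were whole multiples of a common step (within 0.02 steps), too few to recover reads for a count test, and the log-scale test was used. Intervals of depth cover counting error only.

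The 9186 genes whose mean reached 10 CPM were converted to log2(CPM + 1) and compared by limma 3.58.1 in R 4.3.3 (mean trend, two-sided, Benjamini-Hochberg over all genes tested, threshold 0.05). Exact permutation tests were two-sided over all 924 assignments of mice, which can give no p below 0.00216. Sequences were compared with Biopython 1.88 and BLASTN 2.17.0. Symbols, positions and exon lengths came from GENCODE M21 (mm10), older symbols from RefSeq. The members and lists were chosen with earlier results of these data known. Named genes are the members, their relatives, up to 3 genes with the smallest p per list and the 2 genes most like each member, of which some are not reported here; genes named beside these (Decr2, Elovl5, Acox3, Hmgcs1, Cyp51, Alb) mark an extreme, a plotted gene or a marker and were partly chosen after their values were seen. limma was tested on simulated data (9186 genes, 8 false calls among unchanged genes). The active-site pattern was tried in 3 forms, and its last form and codon range were chosen after matches were seen; a search of upstream windows for 6 promoter motifs was also run and is not reported. The correlations of members with their pathway lists were added after the closest partners were known, and all 8 are shown. Mouse numbers were not used to pair samples.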

Additional observations from a re-analysis of the deposited data

Results flagged for a closer look

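Among 86 groups of 6 mice tested for a mouse far from the others, 5 held one, and chance flags about 1 group in 20. None concerned the 9 Hsd17b genes. WT mouse 5 stood far above the other WT mice in 3 genes: Nsdhl (50.7 CPM, next 36.5), Fdps (126.6, next 85.0) and the hepatocyte transcription factor Foxa2 (27.6, next 19.2). The same mouse had the highest WT value of Hsd17b7 and Hsd17b6. Acaa1a, a peroxisomal thiolase, was high in WT mouse 3 (189.9 CPM, next 163.7). Rdh10 was high in KO mouse 2 (24.2 CPM, next 21.4).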

How the results depend on the processing

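Of the 8 enzymes other than Hsd17b13, 0 passed under any alternative (pseudocounts, filters, scalings, weights, trend, block and mice left out), the smallest adjusted p being 0.406. Hsd17b13 passed in all of them, from -7.70 to -4.99. The count of genes passing, 14 as reported, was 35 with array weights, 31 at a mean of at least 1 CPM, 29 with no filter, 4 at a mean of at least 100 CPM, 27 with median-of-ratios scaling and 90 without KO mice 1 and 3, and 9 to 25 when 1 mouse was left out. Signs near 0 turned: Hsd17b11 was -0.023 with quantile normalization and -0.020 without KO mice 1 and 3. With 1 mouse left out it ran from -0.041 to 0.034, Hsd17b4 from -0.0021 to 0.073, Hsd17b6 from -0.146 to 0.032 and Hsd17b7 from -0.020 to 0.145; the causes were not tested. The summed level of the 8 differed by -0.154% to 4.47% with 1 mouse left out and by 5.46% with median-of-ratios scaling, which set the median of all genes at 0.04. Of the 8, 4 to 8 were positive when 1 mouse was left out. The length choices each moved 2 of 9 ranks. With the replicate block 11 genes passed. Same-numbered mice correlated from -0.514 to 0.388, which cannot settle whether the mouse numbers pair the samples. At a mean of at least 100 CPM 3 of the 8 were tested. Depth does not limit the members, whose counting error was at most 2.94% except for Hsd17b13 in KO.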

Other observations

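Of 16 tested nuclear receptors and lipid regulators 12 had positive differences (median 0.09; over all genes 45.6% were positive, with a median of -0.01), 0 passed limma's test in either direction and 3 had an unadjusted p under 0.05 (9.80% of all genes). Foxa2 was at 19.8 ± 3.93 CPM in WT against 25.6 ± 2.96 in KO (a log2 difference of 0.37 with an SE of 0.11, adjusted p = 0.217). It passed when WT mouse 5 was left out. That mouse had the outlying WT value of Foxa2 (27.6 CPM, next 19.2), so leaving it out is a choice drawn from these same values and tests nothing. Pparg, the receptor that drives fat storage, was at 20.1 ± 1.08 and 22.3 ± 1.17 (adjusted p = 0.328), and 4 KO mice exceeded the highest WT mouse. Ppara, the receptor that drives fatty acid oxidation, was at 124.8 ± 14.9 and 142.4 ± 14.2 (adjusted p = 0.501).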
